A study of Mus musculus with 6 samples.

Results

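The IGHV8 and IGHV9 families are groups of related variable (V) genes of the mouse immunoglobulin heavy chain locus. Their chains were taken as every primary heavy chain whose V gene name began with IGHV8- or IGHV9- in splenic B cells of both mice, the primary chain being the one with most unique molecular identifiers (UMIs). This gave 789 of 8295 B cells with a heavy chain, 364 of them with an IGHV8 gene and 425 with an IGHV9 gene, and 10 of the 99 heavy chain V genes found. The 564Igi mouse held 224 of its 3471 cells in these families, and the WT mouse 565 of its 4824. The 564Igi mouse was heterozygous for a rearranged heavy chain and a rearranged kappa light chain of an autoreactive antibody, the alleles Ightm1(Igh564)Tik and Igktm1(Igk564)Tik on a B6.129S4(Cg) background, and the WT mouse was C57BL/6JRj. Erythroid cells were removed from the spleen cells through Ter-119 before droplet capture and V(D)J sequencing. The labels name no age, sex or treatment for either animal. Each group was 1 mouse, so no difference was tested against the spread between animals and no p-value was computed. Parentheses hold 95% intervals, exact binomial for shares and Newcombe for differences, which cover only counting error.

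A heavy chain variable region is built in each developing B cell by joining a V, a D and a J gene. The junction, with a few bases of the V gene, the D gene and the first part of the J gene, encodes the CDR3. This loop often lies at the centre of the antigen-binding site. The first codons of the CDR3 come from the V gene and the last ones from the J gene. IGHV8 and IGHV9 are known under the older names V3609 and VGAM3.8. IGHV8 genes lie interspersed among IGHV1 genes, in the distal part of the locus, and IGHV9 genes closer to the D genes. An existing rearranged heavy chain can be changed by replacement, in which an upstream V gene is joined into the V segment already in place and the downstream end of the old CDR3 is kept.

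The chain taken as the knock-in heavy chain joined IGHV1-53 to IGHJ4 and was primary in 1818 of 3471 cells of the 564Igi mouse. It was identified as the commonest heavy chain there, since the labels do not give the sequence of the knocked-in genes. By definition it held no IGHV8 or IGHV9 gene. The other 1653 564Igi cells were divided by whether the CDR3 ended in the 10 residues of the knock-in chain, GGFYYGMDYW. The 712 cells with the end included 111 IGHV8 or IGHV9 chains, and the 941 cells without it included 113. The 3 groups compared below are therefore 564Igi cells with the end, 564Igi cells without it and WT cells. 1 of the 111 chains, an IGHV9-3 chain, carried the whole knock-in CDR3 under another V gene name.

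The following CDR3 sequences, from cysteine to tryptophan, show how far IGHV8 and IGHV9 chains with the end shared their 3′ bases with the knock-in chain. For each gene a chain at the gene's median length is shown. Capitals mark the end itself in the knock-in chain, and in the other chains the unbroken run of 3′ bases identical to the knock-in CDR3. All come from chromosome 12, from the 564Igi mouse.
Knock-in heavy chain: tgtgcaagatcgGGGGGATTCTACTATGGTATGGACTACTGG
IGHV8-8 with the end: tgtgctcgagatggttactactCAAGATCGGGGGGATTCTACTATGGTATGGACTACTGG
IGHV8-12 with the end: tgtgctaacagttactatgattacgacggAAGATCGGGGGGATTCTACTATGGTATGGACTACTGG
IGHV8-11 with the end: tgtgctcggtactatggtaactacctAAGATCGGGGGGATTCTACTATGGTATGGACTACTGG
IGHV9-1 with the end: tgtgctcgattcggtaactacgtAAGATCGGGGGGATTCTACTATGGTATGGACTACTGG
IGHV9-3 with the end: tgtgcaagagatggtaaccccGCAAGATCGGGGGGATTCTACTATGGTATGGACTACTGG

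In each of these chains the shared run reached past the 30 bases of the end into the bases upstream of it in the knock-in CDR3. Over all 111 IGHV8 and IGHV9 chains with the end, the shared run had a median of 35 bases (quartiles 35 and 38, highest 42, which is the whole knock-in CDR3). It was at least 33 bases long in 105 of 111, or 94.6%, which takes in the serine codon before the end. The 601 chains of other V genes with the end had a median of 36 bases, with at least 33 in 92.0%. A run of at least 36 bases was found in 49.5% of IGHV8 and IGHV9 chains and in 60.6% of the others. IGHJ4 chains of these families without the end had a median run of 13 bases in the 564Igi mouse, where 7 of 33 reached 18 bases, and also 13 in WT, where none of 145 exceeded 13. The gap in run length between chains with and without the end is largely set by the rule, which asks for the 10 end residues. No conclusion is drawn from that gap. The 10 end residues were preceded by a median of 10 others (range 4 to 17), and the residue directly before the end was serine in 105 of 111 chains, with arginine before the serine in 59.

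A second set of sequences shows codons at the other side of the CDR3, where the V gene encodes the first ones. Capitals mark codon 2 for IGHV9-1, codon 3 for IGHV8-5, and codon 4 for IGHV8-8 and IGHV8-12, where the cysteine codon is codon 1. Whether codon 4 came from the V gene or from the junction was not tested. Each is the chain closest to the gene's median length in its group among those with the residue counted below.
IGHV9-1, 564Igi with the end: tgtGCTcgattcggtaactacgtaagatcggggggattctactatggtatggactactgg
IGHV9-1, 564Igi without the end: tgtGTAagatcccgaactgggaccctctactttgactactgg
IGHV9-1, WT: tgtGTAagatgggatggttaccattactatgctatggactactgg
IGHV8-5, 564Igi with the end: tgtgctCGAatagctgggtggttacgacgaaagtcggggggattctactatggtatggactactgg
IGHV8-5, 564Igi without the end: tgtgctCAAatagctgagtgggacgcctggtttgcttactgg
IGHV8-5, WT: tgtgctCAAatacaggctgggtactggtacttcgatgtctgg
IGHV8-8, WT: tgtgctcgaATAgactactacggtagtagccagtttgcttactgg
IGHV8-12, WT: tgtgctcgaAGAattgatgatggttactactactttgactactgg

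The B cell libraries held 20898886 reads and 747499 UMIs in 564Igi, and 24740982 reads and 927382 UMIs in WT. Among B cells with a light chain, a heavy chain was found in 91.0% (90.1 to 91.9) of 564Igi cells and 74.6% (73.6 to 75.7) of WT cells, and the part of this gap in the usage values was not tested. The median heavy chain count of IGHV8 and IGHV9 cells was 20 UMIs in both 564Igi groups and 18 in WT. Barcodes called as cells in both the B and the T cell table of a mouse, 373 in 564Igi and 345 in WT, were left out. The B cell tables of both mice shared 38 called barcodes. Among barcodes called only as T cells, a productive IGHV8 or IGHV9 chain was seen in 1 of 4573 in 564Igi, with 1 UMI, and in 0 of 3263 in WT, which allows up to 0.0919%.

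IGHV8 and IGHV9 together made up 15.6% (13.0 to 18.5) of 564Igi cells with the end, 12.0% (10.0 to 14.3) of 564Igi cells without it and 11.7% (10.8 to 12.7) of WT cells. Cells with the end stood 3.88 percentage points above WT (1.12 to 6.89) and 3.58 points above 564Igi cells without it (0.152 to 7.09). Cells without the end and WT cells differed by 0.296 points (-1.92 to 2.72), less than counting error. IGHV9 was found at 9.13%, 7.01% and 6.09% in the same order of groups. Its share with the end stood 3.03 points above WT (0.899 to 5.48). Against 564Igi cells without the end the IGHV9 difference of 2.12 points (-0.601 to 4.94) included 0. IGHV8 was found at 6.46%, 4.99% and 5.62%, and the intervals of its 3 differences all included 0. Other families also differed: IGHV1, the largest family, made up 41.3%, 51.6% and 58.5%, and IGHV5 made up 11.4%, 8.18% and 6.90%. IGHV2 made up 14.6%, 8.50% and 5.62%, and IGHV3 8.15%, 4.14% and 4.52%. IGHV6 was lower with the end, at 1.12%, 3.08% and 3.21%, as was IGHV10, at 0.983%, 2.98% and 2.63%. Family shares of a group are parts of 1 total, so a lower IGHV1 share goes with higher shares elsewhere. The part of this in the IGHV8 and IGHV9 differences was not tested.

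**Figure D1:**
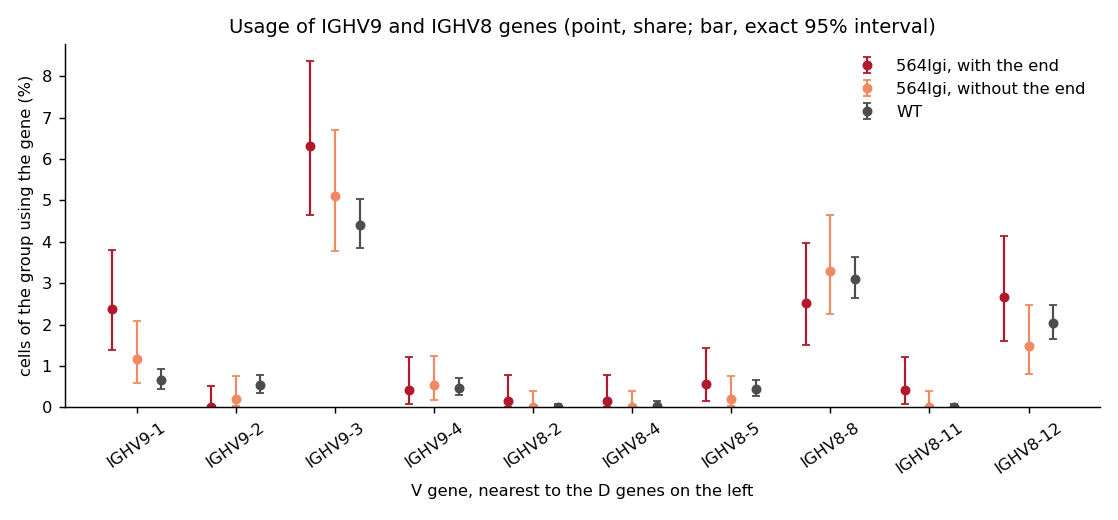
Share of cells of each group (y axis, %) using each IGHV9 and IGHV8 gene (x axis, ordered by distance from the D genes), as points with exact 95% intervals, for 564Igi cells with the end (712 cells), 564Igi cells without it (941) and WT cells (4824). Chains are counted by gene name. IGHV9-3 is the commonest gene in every group, and IGHV9-1 stands at 2.39% with the end, against 0.663% in WT.

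IGHV9-3 (chr12:114140692-114141122 in GRCm38.p6, 614 kb from the nearest D genes) was the commonest of these genes in every group. It was primary in 45 cells with the end, 48 cells without it and 213 WT cells, or 6.32%, 5.10% and 4.42%. Its excess with the end over WT was 1.90 points (0.121 to 4.03). This interval took in 0 under 3 of the 9 alternative settings, for example 1.70 (-0.0176 to 3.74) when the end was matched by its bases. Against 564Igi cells without the end the IGHV9-3 difference of 1.22 points (-1.10 to 3.65) included 0.

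IGHV9-1 (chr12:114093928-114094221, 567 kb from the D genes and the nearest of the 10) had the largest ratio to WT among the 7 genes with at least 20 cells. It was primary in 17 cells with the end (2.39%), 11 cells without it (1.17%) and 32 WT cells (0.663%). Its share with the end was 3.60-fold that in WT, a difference of 1.72 points (0.697 to 3.15). Without the end it was 1.76-fold, with a difference of 0.506 points (-0.139 to 1.44) that included 0. These shares count chains by gene name. The second CDR3 residue of IGHV9-1 chains was valine in 0 of 17 cells with the end and 25 of 32 WT cells. Whether the name covers the same germline gene in all groups was not tested, so the ratio may not compare 1 gene. Over all V genes with at least 20 cells in the 2 groups compared, a difference of at least 1.5-fold was used as a call. IGHV9-1 was the 1 of 7 called higher, beside 32.4% of all 68 V genes tested, and IGHV9-2 the 1 of 7 called lower, beside 42.6%. Calls of this size were thus common among all V genes, whose median ratio was 0.821. Without the end, IGHV9-1 was again the 1 of 7 called higher, beside 24.2% of 66 genes, and IGHV8-5 and IGHV9-2 were called lower, beside 21.2%. With against without the end, IGHV9-1 (2.04-fold) and IGHV8-12 (1.79-fold) were the 2 of 4 called higher, beside 35.5% of 31 genes, and none of the 4 was called lower, beside 38.7%. Both of these differences had intervals that included 0.

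IGHV9-2 (chr12:114109001-114109430) was found in 0 of 712 cells with the end, which allows up to 0.421%, in 2 cells without it and in 26 WT cells. Both 564Igi groups together held 0.121%, against 0.539% in WT, a difference of -0.418 points (-0.689 to -0.0515). Taken separately, both differences from WT included 0, at -0.539 points (-0.789 to 0.0104) with the end and -0.326 points (-0.638 to 0.257) without it. IGHV9-4 (chr12:114299961-114300254) was found in 3, 5 and 23 cells, with shares between 0.421% and 0.531%.

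Among the IGHV8 genes, IGHV8-8 (chr12:115294066-115294362, 1767 kb from the D genes) was primary in 18 cells with the end, 31 cells without it and 150 WT cells, or 2.53%, 3.29% and 3.11%. IGHV8-12 (chr12:115647945-115648245, 2121 kb) was primary in 19, 14 and 98 cells, or 2.67%, 1.49% and 2.03%. The intervals of all differences between groups for these genes included 0. IGHV8-5 (chr12:115067560-115067860) had 4, 2 and 21 cells. IGHV8-11 (chr12:115567149-115567449) was found in 3 cells with the end, in 0 of 941 cells without it, which allows up to 0.319%, and in 0 of 4824 WT cells, which allows up to 0.0622%. IGHV8-2 was primary in 1 cell, with the end, and in no cell of the other groups, and IGHV8-4 in 1 cell with the end, none without it and 2 WT cells. RefSeq lists 10 IGHV8 and 4 IGHV9 V segments, of which 6 and 4 were found here, and 6 IGHV8 pseudogenes, of which none was found. All 10 gene names of the tables matched a RefSeq symbol.

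For IGHV9-1 and IGHV8-8, chains with the end often began with other residues than chains of the same gene without it or in WT, and for IGHV8-5 than chains in WT. The second residue of an IGHV9-1 CDR3 was valine in 0 of 17 cells with the end, in 9 of 11 cells without it (81.8%) and in 25 of 32 WT cells (78.1%). In its place 16 of the 17 cells with the end had alanine, against 2 of 11 without it and 4 of 32 in WT, a change from WT to chains with the end written V2A, counted from the cysteine as 1. The codon behind it was GCT in 15 of the 17 cells with the end, and GTA in 9 of 11 cells without it and 23 of 32 WT cells. The difference in valine between chains with and without the end, which share a mouse and a library, was -81.8 points (-97.7 to -43.0). That mouse was heterozygous for the knock-in heavy chain. Whether chains with and without the end came from the same heavy chain allele was not tested, here or for the genes below.

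IGHV8-5 differed between chains with the end and WT in few cells. The third residue was arginine in 4 of 4 cells with the end, in 1 of 2 cells without it and in 0 of 21 WT cells. Glutamine stood there in 0 of 4, 1 of 2 and 19 of 21 cells, and the change from WT to chains with the end is Q3R. Within the 564Igi mouse the arginine difference of 50.0 points (-27.5 to 98.7) included 0. The arginine codon was CGA in all 4 cells with the end, and the glutamine codon CAA in all 19 WT cells.

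IGHV8-8 and IGHV8-12 share their first CDR3 codons and were set apart by the fourth. IGHV8-8 had isoleucine at position 4 in 4 of 18 cells with the end (22.2%), 19 of 31 cells without it (61.3%) and 100 of 150 WT cells (66.7%). With the end it was 44.4 points rarer than in WT, a difference of -44.4 (-61.9 to -17.8). Whether this was a difference in the V gene or in the junction was not tested. IGHV8-12 had arginine at position 4 in 11 of 19 (57.9%), 9 of 14 (64.3%) and 51 of 98 cells (52.0%), with intervals of the differences that included 0. IGHV9-3 kept the alanine codon GCA at position 2 in 44 of 45, 46 of 48 and 207 of 213 cells.

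Across all V genes with at least 5 cells in both groups, the commonest second codon differed between chains with the end and WT for 6 of 43 genes, of which IGHV9-1 was the only one in these families. It differed between chains without the end and WT for 0 of 60. The third codon differed for 5 of 43 genes and 0 of 60, and IGHV8-5 had too few cells to be counted there. The CDR3 tables hold no V-encoded bases upstream of the cysteine, so whether chains named IGHV9-1 with alanine come from the same germline gene as those with valine was not tested.

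4 further 564Igi chains without the whole end closed with its last 8 residues, 1 each of IGHV8-12, IGHV8-5, IGHV9-1 and IGHV9-3. They shared 25, 26, 29 and 29 bases with the knock-in chain. The IGHV9-1 chain had GCT at codon 2 and the IGHV8-5 chain CGA at codon 3, the codons found in chains with the end. No WT chain of these families closed with those 8 residues.

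**Figure D2:**
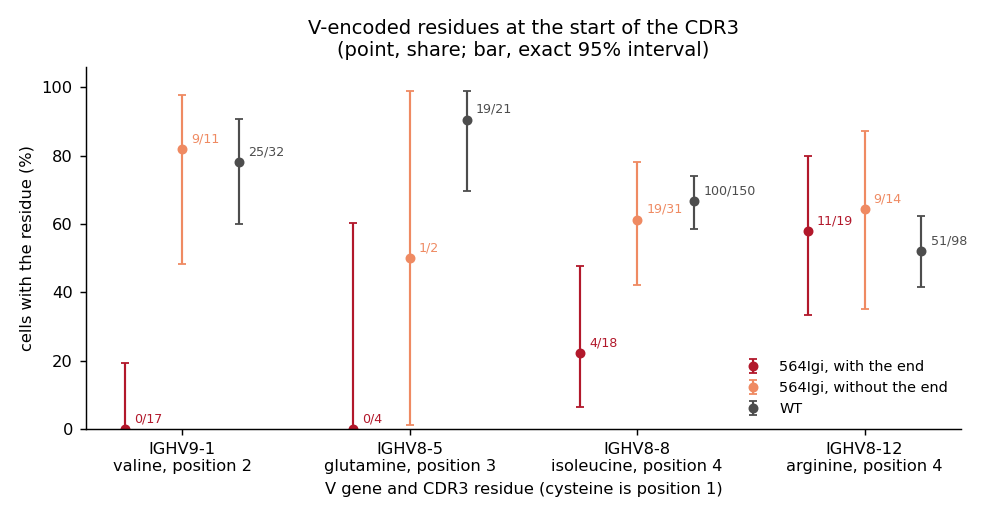
Share of cells (y axis, %) with the named residue at the start of the CDR3 for 4 genes (x axis), as points with exact 95% intervals and the counts beside them, for 564Igi cells with the end, 564Igi cells without it and WT cells. Valine is seen in 0 of 17 IGHV9-1 cells with the end, against 9 of 11 without it and 25 of 32 in WT.

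The IGHV8 CDR3 was longer than that of other V genes also where the end played no part. IGHV8 had a median of 21 residues with the end (range 16 to 26), 16 without it (11 to 22) and 15 in WT (10 to 23). IGHV9 had medians of 20, 14 and 14, and all other V genes, without the knock-in chain, 20, 14 and 14. The length of chains with the end is partly set by the rule that chose them, since each already holds 10 fixed residues, so no comparison is drawn from it. A CDR3 of at least 16 residues was found in 63.8% (48.5 to 77.3) of IGHV8 chains without the end and in 42.4% (36.5 to 48.6) of WT IGHV8 chains, a difference of 21.4 points (4.90 to 36.1). In WT the IGHV8 share stood 15.5 points (9.37 to 21.7) above that of other V genes, 27.0%. IGHV8-8 had such a CDR3 in 24 of 31 cells without the end (77.4%) and 68 of 150 WT cells (45.3%), a difference of 32.1 points (11.8 to 47.4). IGHV8-12 had 5 of 14 and 38 of 98 such cells (35.7% and 38.8%), a difference of -3.06 points (-28.3 to 27.7) that included 0. In WT both genes stood above other V genes, IGHV8-8 by 18.4 points (10.1 to 26.8) and IGHV8-12 by 11.8 points (2.05 to 22.3). For IGHV9 the share was 27.3% without the end and 34.0% in WT, a difference of -6.74 points (-18.5 to 6.75), and the WT share stood 7.06 points (1.49 to 12.9) above other V genes.

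**Figure D3:**
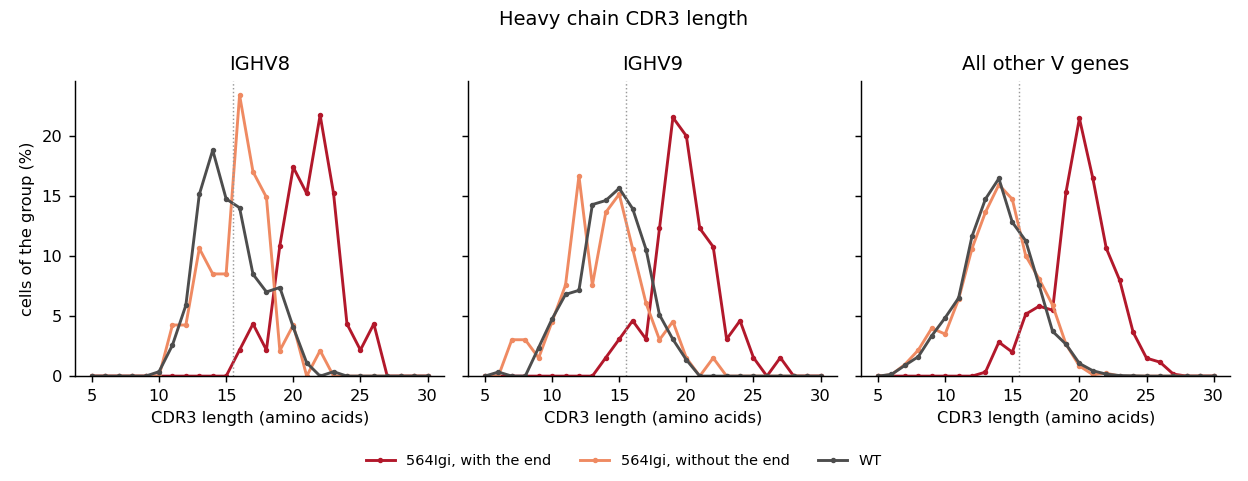
Distribution of heavy chain CDR3 length (x axis, amino acids) as the share of cells of each group (y axis, %), for IGHV8, IGHV9 and all other V genes without the knock-in chain, with a dotted line at the limit of 16 residues. IGHV8 chains without the end peak to the right of WT IGHV8 chains, with medians of 16 and 15, whereas for IGHV9 both medians are 14.

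Net charge was counted as arginine and lysine minus aspartate and glutamate. The sequence shared with the knock-in chain adds charge of its own. The end carries -1, from its aspartate, and the knock-in chain has arginine-serine before it. Among chains with the end, arginine-serine preceded it in 28 of 46 IGHV8 (60.9%), 31 of 65 IGHV9 (47.7%) and 388 of 601 others (64.6%). A shared run of at least 36 bases, which takes in both knock-in codons, was found in 26, 29 and 364 of these groups. Differences between chains with the end and the other groups therefore rest in part on the rule. A net charge of 1 or more was found in 67.4% (52.0 to 80.5) of IGHV8 chains with the end, 36.2% (22.7 to 51.5) without it and 25.8% (20.7 to 31.5) in WT. IGHV8 chains with the end stood 41.6 points (25.2 to 55.6) above WT and 31.2 points (9.50 to 50.0) above 564Igi IGHV8 chains without the end. For IGHV9 the shares were 36.9%, 24.2% and 27.9%, with intervals of the differences that included 0, and for other V genes 37.3%, 27.8% and 23.8%. Among chains with the end, IGHV8 stood 30.1 points (14.2 to 43.8) above other V genes and 30.5 points (10.4 to 48.0) above IGHV9. For IGHV8-8 alone the difference from other V genes with the end was 12.7 points (-11.6 to 37.0), which included 0.

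IGHV8-12 had the highest share in each group among IGHV8-8, IGHV8-12, IGHV9-1 and IGHV9-3. A net charge of 1 or more was found in 17 of 19 cells with the end (89.5%), 8 of 14 cells without it (57.1%) and 35 of 98 WT cells (35.7%). It was above other V genes in each group, by 52.2 points (29.2 to 62.2), 29.4 points (0.904 to 54.7) and 11.9 points (2.41 to 22.3). IGHV8-8 had 9 of 18 (50.0%), 8 of 31 (25.8%) and 31 of 150 cells (20.7%), with a difference between chains with the end and WT of 29.3 points (4.25 to 54.1). IGHV8-5 had a median charge of 1 in its 4 cells with the end and of -1 in its 21 WT cells. IGHV9-3 had 40.0%, 27.1% and 29.1%, and IGHV9-1 had 6 of 17, 1 of 11 and 8 of 32 cells.

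**Figure D4:**
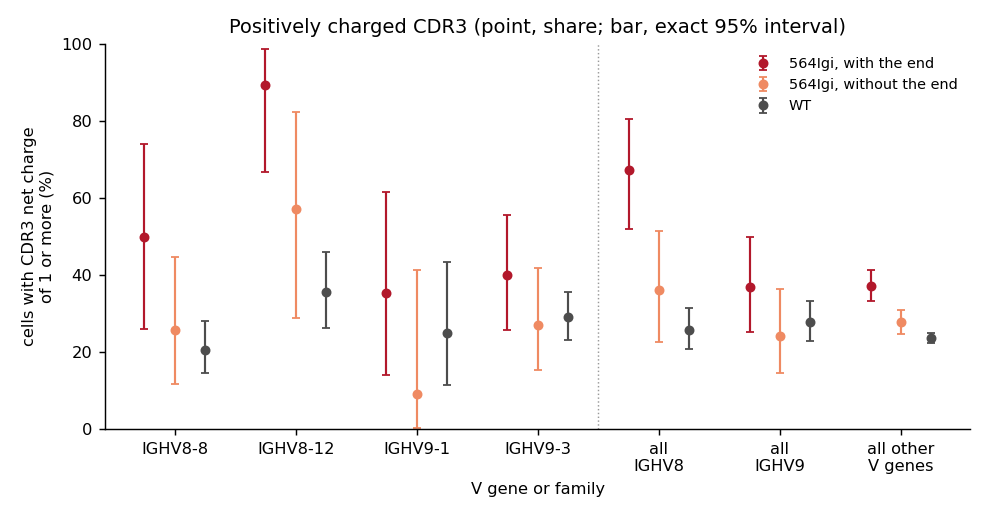
Share of cells with a CDR3 net charge of 1 or more (y axis, %) for 4 genes, for both families and for all other V genes without the knock-in chain (x axis), as points with exact 95% intervals, in 564Igi cells with the end, 564Igi cells without it and WT cells. The IGHV8 share is 67.4% with the end, against 25.8% in WT, while IGHV9 lies at 36.9%, against 27.9%.

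All 111 chains with the end used IGHJ4, which the rule fixes, since the end holds IGHJ4-encoded residues. In WT, IGHV8 chains used IGHJ1, the J gene nearest to the D genes, in 77 of 271 cells, or 28.4% (23.1 to 34.2), against 16.3% (15.2 to 17.5) of other V genes, a difference of 12.1 points (6.68 to 18.0). IGHV8-12 used it in 31 of 98 cells (31.6%) and IGHV8-8 in 37 of 150 (24.7%). In 564Igi cells without the end, 12 of 47 IGHV8 chains used it, or 25.5% (13.9 to 40.3). Other V genes there had 14.7% (12.4 to 17.3), an interval that overlapped that of IGHV8. IGHV9 used IGHJ1 in 19.7% of 564Igi chains without the end and 17.3% of WT chains. IGHJ3 was named in 13.3% of IGHV8 and IGHV9 chains without the end and in 22.7% in WT, a difference of -9.38 points (-16.1 to -0.992), while other V genes had 24.9% and 23.5%.

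The D gene of chains with the end is not independent of the rule that chose them. The 3′ bases shared with the knock-in chain can set the D name, so these shares are a description. The knock-in chain itself was named IGHD3-1 in 1818 of 1818 cells. IGHD2-8 was named in 27.9% of IGHV8 and IGHV9 chains with the end, 6.19% without it and 5.31% in WT, and IGHD3-1 in 18.9%, 0.885% and 1.06%. IGHD1-1, the commonest D gene in WT, was named in 19.8%, 39.8% and 36.8%. Chains of other V genes with the end had IGHD2-8 in 22.3% and IGHD3-1 in 19.0%. How D genes were named was not given in the sources used.

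The light chain taken as the knock-in chain joined IGKV4-59 to IGKJ5 and was primary in 3285 of 3649 cells of the 564Igi mouse with a light chain. It was the primary partner of 98 of 108 IGHV8 and IGHV9 chains with the end (90.7%, 83.6 to 95.5) and 93 of 111 without it (83.8%, 75.6 to 90.1), and was found with 0 of 558 in WT, which allows up to 0.538%. For other V genes it was 88.7% with the end and 78.3% without it. IGHV8 chains carried it in 95.6% with the end and 87.0% without it, and IGHV9 chains in 87.3% and 81.5%. Counting any light chain contig, 94.6% of IGHV8 and IGHV9 cells without the end held it, against 88.2% of other V genes without the end, a difference of 6.42 points (0.0670 to 10.6). With the end it was 92.6% of IGHV8 and IGHV9 cells, against 95.9% of other V genes, a difference of -3.35 points (-10.2 to 1.23) that included 0. All 17 IGHV9-1 cells with the end had it as the primary chain.

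In WT, IGHV8 and IGHV9 chains were paired with lambda light chains more often than other V genes. A lambda chain was primary in 39 of 269 IGHV8 cells (14.5%, 10.5 to 19.3) and 40 of 289 IGHV9 cells (13.8%, 10.1 to 18.4), against 8.16% (7.35 to 9.03) of other V genes. The differences were 6.34 points (2.26 to 11.2) and 5.68 points (1.82 to 10.3). IGHV8-8 reached 27 of 148 cells (18.2%) and IGHV9-3 36 of 209 (17.2%), whereas IGHV8-12 had 6 of 98 (6.12%) and IGHV9-1 0 of 32, which allows up to 9.38%. IGHV8-12 stood 12.1 points lower than IGHV8-8, a difference of -12.1 (-20.3 to -3.20). In 564Igi, a lambda chain was primary in 2 of 108 cells with the end and 3 of 111 without it, all with IGHV9 genes. WT cells of these families used 75 light chain V genes, with IGLV1 the commonest in both (27 IGHV8 and 18 IGHV9 cells).

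**Figure D5:**
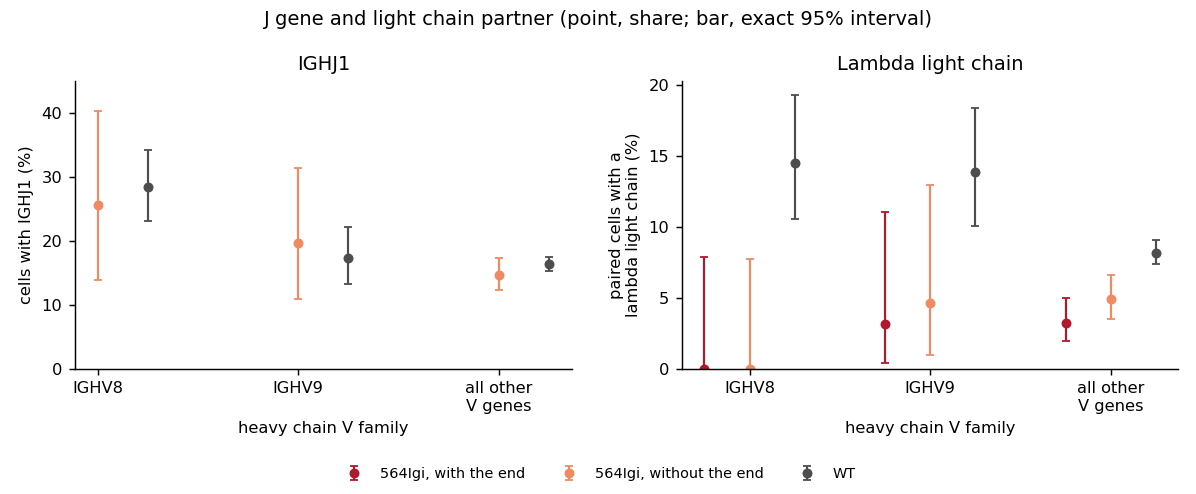
Left, share of cells using IGHJ1 (y axis, %) for IGHV8, IGHV9 and all other V genes (x axis) in 564Igi cells without the end and WT cells; chains with the end are left out because the rule fixes their J gene. Right, share of paired cells with a lambda light chain (y axis, %) in all 3 groups; points are shares and bars exact 95% intervals. WT IGHV8 stands at 28.4% for IGHJ1 and 14.5% for lambda, against 16.3% and 8.16% of other V genes.

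Most chains were of unswitched isotypes. Of IGHV8 and IGHV9 chains with a named constant gene, IGHM was found in 86.9% with the end, 84.7% without it and 76.6% in WT. IGHD, the constant gene of IgD, was found in 10.3% (11 of 107), 15.3% (17 of 111) and 22.5% (122 of 543). Chains with the end stood 12.2 points lower than WT in IGHD, a difference of -12.2 (-18.5 to -4.05). Other V genes had 10.4%, 12.6% and 21.3%, in the same order of groups. Switched chains numbered 3 of 107 with the end, 0 of 111 without it, which allows up to 2.70%, and 5 of 543 in WT. Other V genes had 2 of 577 with the end, 24 of 802 without it and 21 of 3984 in WT. The difference from other V genes was 2.46 points (0.0600 to 7.64) with the end and -2.99 points (-4.42 to 0.446) without it. The 3 switched IGHV8 and IGHV9 chains with the end were IGHV8-8 with IGHA, IGHV8-12 with IGHG2B and IGHV9-3 with IGHG3. The 5 WT chains all used IGHA, 4 with IGHV9-3 and 1 with IGHV8-8.

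The 4 WT IGHV9-3 cells with IGHA were a single clonotype, the same V gene, J gene and CDR3 bases of both chains, paired with IGKV12-46. They held 13370, 19, 14 and 6 heavy chain UMIs. It was the largest of 3 repeated clonotypes in WT, beside 3 cells of IGHV8-8 with an IGKV9 light chain and 2 cells of IGHV8-12 with IGKV1-110, which together made up 9 of 558 paired cells, or 1.61%. In 564Igi, 0 of 219 paired cells shared a clonotype, and 1 heavy chain, an IGHV9-3 chain without the end, was found in 2 cells with different light chains, at 15 and 2299 UMIs. Heavy chains of at least 1000 UMIs were found in 3 564Igi cells of these families and 1 WT cell. No heavy chain or CDR3 of these families was found in both mice.

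A second productive heavy chain was found in 17 of 224 IGHV8 and IGHV9 cells of the 564Igi mouse (7.59%, 4.48 to 11.9), in 6 of which it was the knock-in chain, and in 37 of 565 in WT (6.55%, 4.65 to 8.91). IGHV8 or IGHV9 genes made up 11 of 122 second heavy chains in 564Igi and 32 of 371 in WT (9.02% and 8.63%). Among heavy chain contigs of B cells that were not flagged productive, they made up 11 of 151 in 564Igi (7.28%) and 40 of 700 in WT (5.71%). IGHV8-2, which no productive primary chain in WT used, was named in 1 of these 151 and 6 of these 700. All of these were contigs whose productive state was not stated (128 contigs in 564Igi and 649 in WT). Among contigs stated to be not productive, IGHV8-2 was named in 0 of 23 in 564Igi and 0 of 51 in WT.

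Likeness was measured by Euclidean distance between profiles of the 3 group shares, with 65 genes compared. Genes of other families whose shares were divided among the groups most like those of IGHV9 were IGHV1-52, IGHV3-8 and IGHV5-17. Their distances were 0.00867, 0.0143 and 0.0300. The genes most like IGHV8 were IGHV1-85, IGHV1-52 and IGHV3-8, at 0.0745, 0.0756 and 0.0815. IGHV1-52 was used by 1.97% of cells with the end, 1.49% of cells without it and 1.26% of WT cells.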

How the data were processed

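Of 6 libraries described for the 2 mice, the 4 for V(D)J were used. Gene expression was not analysed here, so a B cell rests on receptor calls alone. The deposited tables list contigs with raw read and UMI counts (whole numbers, no normalization, per the file headers), with a cell call, a confidence flag, gene names and the CDR3. Per the submitters' processing notes, Cell Ranger 3.0.2 and mm10 were used. How cells and the flag were called: not given in the sources used here.

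A barcode called in a mouse's B cell table counted as a B cell unless the T cell table also called it. No doublet caller was run. Contigs were high-confidence, productive and of at least 2 UMIs. The members, the division by the end, the gene lists and most settings were chosen with earlier results of these data known. Genes with at least 20 primary cells in either mouse were described in full, others by counts or as extremes. IGHV8-11, IGHV8-2, IGHV8-4, the start residues and single cells were named after their values were seen. Likeness compared each gene's 3 shares divided by their sum. With 1 mouse per group no test was made. For a count of 0, the share that 3 counts would make is printed. Gene coordinates and symbols are from RefSeq (GRCm38.p6, the assembly behind mm10). The share and interval code was tested on simulated data. Software was Python 3.11.15, with SciPy 1.17.1, NumPy 2.4.6, pandas 2.3.3 and matplotlib 3.10.9.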

Additional observations from a re-analysis of the deposited data

How the results depend on the processing

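No paired analysis was possible because each group was 1 mouse. For 45 results, 9 alternatives were run: UMI minimums of 1 and 5, barcodes called in both tables kept, no confidence flag, exactly 1 heavy and 1 light chain, distinct heavy chains counted once, the end matched over 30 bases with up to 2 mismatches and, chosen after seeing the data, only cells with a light chain and no cells of 1000 or more heavy chain UMIs. Of the 405 values, 404 moved by less than their own counting interval and none that excluded 0 changed sign. The other was the IGHV9-4 difference between 564Igi cells without the end and WT, -0.389 points with exactly 1 heavy and 1 light chain. In 7 of the 405 the interval changed sides of 0. For IGHV9-3 usage with the end over WT it took in 0 at 1.70 (bases of the end), 1.83 (1 heavy and 1 light chain) and 1.77 points (light chain needed). For IGHV9-1 with against without the end it excluded 0 at 1.59 (1 heavy and 1 light chain) and 1.36 (light chain needed). For IGHV9-2 with the end against WT it excluded 0 at -0.532 (both-called barcodes kept) and -0.539 (bases of the end). With distinct chains counted once, the genes most like IGHV9 were IGHV3-8, IGHV2-2 and IGHV1-52. The cell numbers per gene, 19 or fewer with the end for each IGHV8 gene and IGHV9-1, limit what could be seen.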
